A study of Salmo salar with 96 samples.

Results

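The type I regulatory subunit genes of protein kinase A were followed in Atlantic salmon (*Salmo salar*) through early development, across tissues and in fish of different origin. All 5 genes of the 220-gene panel whose symbol starts with PRKAR1 were taken, without regard to their counts: *prkar1aa* (PRKAR1Aa), *prkar1ab* (PRKAR1Ab), *prkar1ac* (PRKAR1Ac), *prkar1ba* (PRKAR1Ba) and *prkar1bb* (PRKAR1Bb). The letter at the end of each symbol separates salmon paralogs of mammalian PRKAR1A (subunit RIα) or PRKAR1B (subunit RIβ). In the RefSeq annotation of Ssal_v3.1, 3 of the 5 symbols matched a gene, which is named prkar1ab for *prkar1aa*, LOC106610329 for *prkar1ab* and LOC106606198 for *prkar1ac*.

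Protein kinase A carries signals from hormones and transmitters that raise cyclic AMP in the cell. Its regulatory subunits hold the catalytic subunits inactive, and cyclic AMP bound to the regulatory subunits sets the catalytic subunits free. In mammals RIα is made in nearly all tissues and RIβ mainly in nervous tissue. A-kinase anchoring proteins bind regulatory subunits, of type I and type II in the case of AKAP11, and place the kinase at fixed sites in the cell. RNA for a regulatory subunit does not by itself measure kinase activity.

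Transcripts were counted with NanoString nCounter probes, which count RNA molecules without amplification, in 96 samples. The early series held 18 whole immature fish of the hatchery Neva strain: 4 embryos of 186 °d (degree days after fertilization), another 4 of 258 °d, 4 alevin aged 436 °d, and 6 fry. The yolk sac had been removed from embryos and alevin. Fry 1 and 2 were taken at 1119 °d on normal diet, fry 3 and 4 at 1320 °d on normal diet and fry 5 and 6 at 1320 °d on low-fat diet. The tissue series held 78 samples of 15 tissues, of which 4 were blood of Neva fry at 2212 °d (2 on normal and 2 on low-fat diet). The other tissues came from 3-year-old parr, the freshwater juveniles: 4 immature hatchery Neva fish on normal diet (fish 1 and 2 male, fish 3 and 4 female) and 4 wild males of the Inarijoki river (fish 1 and 2 immature, fish 3 and 4 mature). Both fin samples, adipose fin and tail fin, came from hatchery fish 1, and testis came from hatchery fish 1 and 2 and wild fish 3 and 4. Adipose tissue, brain, ovary, pyloric caeca and spleen came from hatchery parr only.

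The summed count of a sample ran from 201761 to 480697 in the early series and from 47598 to 949899 in the tissues. Levels are given as normalised counts, the raw count times a factor from 6 reference genes, of which *prkar1aa* is one of the 6, and a value of 20 was taken as background. Hatchery muscle 4 and wild liver 1 had factors above 3.0 and were left out, which left 76 tissue samples. Of the genes listed as tissue markers, 10 of 13 brain and eye genes, 4 of 5 skin and fin genes, 2 of 3 liver genes and 2 of 2 gonad genes were highest in their own tissue. The same held for 1 of 2 immune genes (spleen, kidney and blood), 0 of 2 muscle genes and 2 of 8 adipose tissue genes. Both gonad genes, FSHR and LHR/LHCGR, were highest in testis and not in ovary. Of the 470 member values that were kept, 6 lay below 20, and all 6 were from muscle (5 of *prkar1ba* and 1 of *prkar1bb*). In bulk tissue, fewer cells of a type and less RNA per cell cannot be told apart. Whether any of the probes reads more than 1 paralog was not tested, so levels are compared between samples for 1 gene and not between genes.

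All 5 genes were above background in every whole fish, and all 5 were higher in fry than in 186 °d embryos. The RIβ gene *prkar1ba* rose most of the 5, by 2.84-fold. It stood at 78.2, 83.0, 99.3 and 103 normalised counts in the 186 °d embryos and at 90.2, 110, 93.8 and 80.4 in the 258 °d embryos. The 4 alevin gave 153, 125, 139 and 157, and the 6 fry stood at 247, 205, 248, 349, 254 and 248. The embryos of both ages overlapped, whereas every alevin was above every embryo and every fry was above every alevin. Between 258 °d embryos and alevin the gene rose by 0.61 on the log2 scale (SE 0.15, adjusted p = 0.0030, edgeR's quasi-likelihood test), and between alevin and fry by 0.85 (SE 0.14, adjusted p = 2.4e-05).

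The second RIβ paralog, *prkar1bb*, followed a shallower course. Its levels were 196, 179, 203 and 222 in the 186 °d embryos and 200, 247, 198 and 193 in the 258 °d embryos. They were 248, 258, 253 and 236 in alevin, and the 6 fry ran from 279 to 411 with a median of 308. Every fry was above every alevin, while embryo 2 of 258 °d overlapped the alevin. The step into fry was 0.38 (SE 0.11, adjusted p = 0.0055), and with the cartridge (the set of 12 samples read together) as a block it was 0.34 and missed the threshold (adjusted p = 0.0625). The step into alevin was 0.25 with an adjusted p of 0.0947. Without 258 °d embryo 2 that step was 0.34 and passed (adjusted p = 0.0364), and it also passed at an unmoved 0.25 without fry 4 (adjusted p = 0.0490).

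Among the RIα paralogs, *prkar1aa* and *prkar1ab* rose between the embryos and alevin. *prkar1aa* was level in the embryos, at 337, 320, 311 and 331 normalised counts at 186 °d and 293, 353, 332 and 318 at 258 °d. It reached 465, 456, 450 and 376 in alevin and 441 to 538 in fry. Alevin did not overlap the embryos but overlapped the fry. The rise into alevin was 0.43 (SE 0.09, adjusted p = 0.00104) and that into fry 0.21 (SE 0.08, adjusted p = 0.0366). The second step was not firm, because without alevin 3, alevin 4 or any of fry 1 to 4 it was 0.15 to 0.22 and missed the threshold. Scaling by the other 5 reference genes, with *prkar1aa* itself left out, gave 0.52 and 0.25 for these steps, and both passed.

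*prkar1ab* stood at 372, 361, 359 and 377 in the 186 °d embryos and 446, 440, 416 and 385 in the 258 °d embryos. It then reached 598, 556, 550 and 520 in alevin. Neither embryo group overlapped the next stage, but only the step into alevin passed the test, at 0.40 (SE 0.09, adjusted p = 0.00148). Fry were at 524 ± 57.0 (SD, n = 6) against 556 ± 32.0 (n = 4) in alevin, a log2 difference of -0.08 that did not pass. *prkar1ac* changed least of the 5, with means of 267 ± 17.2, 339 ± 36.8, 336 ± 35.3 and 342 ± 78.0 in the order of the stages. The fry were spread from 260 to 481, so they overlapped every other stage. Its rise from 186 °d embryos to fry was 0.36 (SE 0.13, adjusted p = 0.0185). That call was lost without 186 °d embryo 1 (0.32, adjusted p = 0.0569), with the cartridge as a block (0.11, adjusted p = 0.619) and with only the fry on normal diet (0.21, adjusted p = 0.0863).

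**Figure D1:**
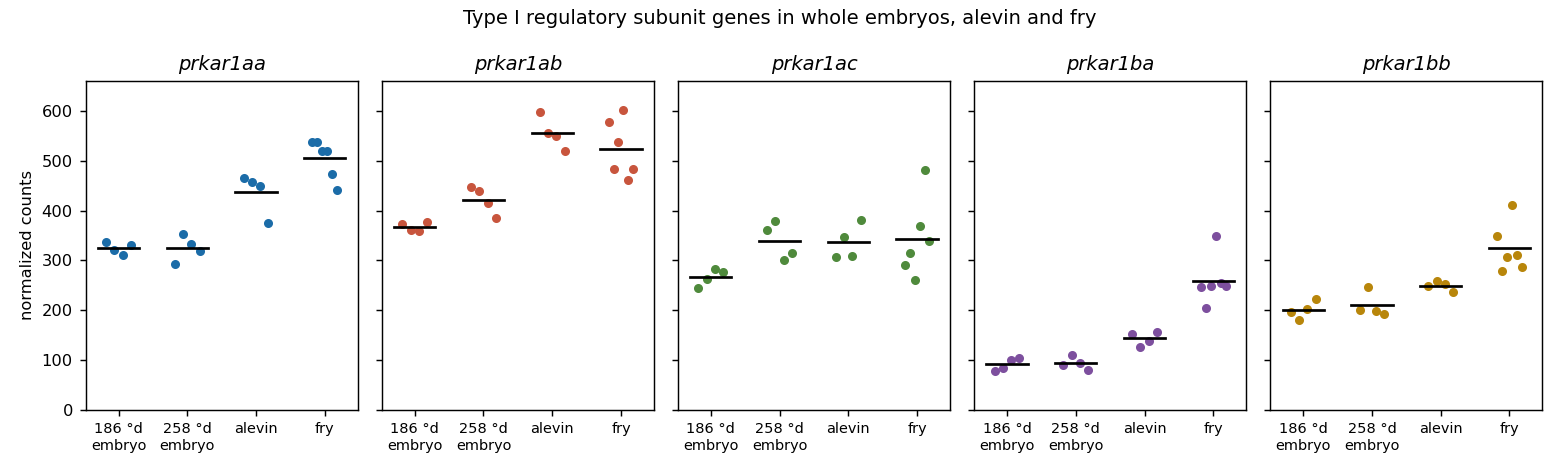
Normalised counts (linear axis from 0) of the 5 genes in each whole fish at the 4 stages, with a line at the mean of each stage. For *prkar1ba* the 6 fry, at 205 to 349, lie above the 4 alevin, at 125 to 157, and the alevin lie above both embryo groups.

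Between the embryo ages 0 of the 5 genes passed the edgeR test, where 32.0% of the 178 genes tested did, and 2 of the 5 had an unadjusted p below 0.05. Between 258 °d embryos and alevin 3 passed, all higher, against 49.4% of genes, of which 65 were higher and 23 lower. Between alevin and fry 3 passed, all higher, against 62.9% of genes, of which 32 were higher and 80 lower. From 186 °d embryos to fry all 5 passed, all higher, against 86.0% of genes, of which 83 were higher and 70 lower. With 5 genes, none of these counts sets the group apart from the panel. Median log2 changes of the 5 genes and of all genes were 0.07 and 0.08 between the embryo ages, and 0.40 and 0.19 into alevin. From 186 °d embryos to fry they were 0.64 and 0.21. The median log2 change into fry from alevin was 0.21 for the 5 genes and -0.30 for all genes. Scaling over the whole panel (TMM) moved the median of all genes at this step by 0.32, and under it *prkar1ab* turned to 0.24 and passed (adjusted p = 0.0149). Of the other reference genes, RPS20 fell by 0.88 and VDRAa rose by 0.80 over the same step. Into alevin only VDRAb/VDR0 among them passed, falling by 0.48 (adjusted p = 0.000114, edgeR). The rises of *prkar1aa* and *prkar1ab* at that step were 0.43 and 0.40. The part of the reference genes in these changes was not tested.

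The other measured genes of this pathway were 8 type II regulatory subunit genes and both AKAP11 paralogs, which encode an anchoring protein. Of these 10, 0 rose and 2 fell between the embryo ages, the largest fall being that of PRKAR2Bd (-0.61, adjusted p = 0.000906). Into alevin 3 rose and 0 fell, led by PRKAR2Ab (1.26, adjusted p = 0.000343). Into fry 3 rose and 3 fell, led by PRKAR2Ab (0.67, adjusted p = 0.0052) and PRKAR2Bc (-0.71, adjusted p = 8.1e-05). From 186 °d embryos to fry 4 rose, PRKAR2Ab by 2.38 (adjusted p = 3.0e-09), and 2 fell, PRKAR2Bd by 1.47 (adjusted p = 1.4e-09).

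Because *prkar1aa* takes part in the scaling, ratios of raw counts of a pair of these genes within a sample, which no scaling can move, were compared too. The log2 ratio of *prkar1bb* to *prkar1ba* was 1.14 ± 0.13 (SD, n = 4) in 186 °d embryos, 1.16 ± 0.08 (n = 4) in 258 °d embryos, 0.79 ± 0.20 (n = 4) in alevin and 0.33 ± 0.12 (n = 6) in fry. It was between 0.59 and 1.04 in alevin and between 0.21 and 0.50 in fry, without overlap. The step into fry was -0.46 (exact permutation test, two-sided, p = 0.0095, the smallest that 4 against 6 samples allow). The step into alevin was -0.36 (exact permutation test, p = 0.0286, the smallest that 4 against 4 allow). Fry less alevin was -0.30 for *prkar1ab* over *prkar1aa* (exact permutation test, p = 0.0095) and 0.62 for *prkar1ba* over *prkar1aa* (exact permutation test, p = 0.0190). After adjustment over the 18 ratio comparisons these were p = 0.0857, 0.103, 0.0857 and 0.103 (exact permutation tests), and 0 of 18 passed. With so few samples no single comparison could pass this adjustment by itself. The count of 0 therefore does not show that the ratios held steady.

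**Figure D2:**
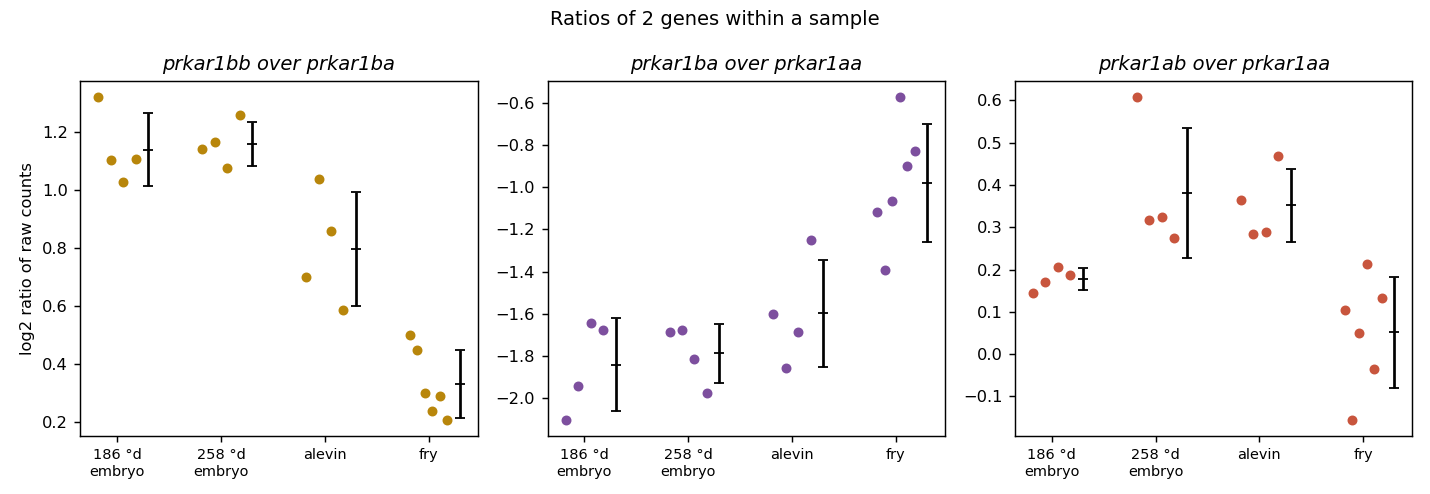
Log2 ratio of the raw counts of a pair of genes within each whole fish at the 4 stages, with the mean and SD, each panel on its own axis. *prkar1bb* over *prkar1ba* was 1.16 in 258 °d embryos and 0.33 in fry, and the 4 alevin do not overlap the 6 fry.

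Across the 15 tissues the 3 RIα paralogs were above 20 normalised counts everywhere, and so was *prkar1bb* on average, whereas *prkar1ba* was at background in muscle. The highest tissue mean was 5.49 times the lowest for *prkar1aa*, 15.4 times for *prkar1ab*, 32.3 times for *prkar1ac*, 62.7 times for *prkar1bb* and 83.8 times for *prkar1ba*, each a ratio within 1 gene and the last against a mean at background. The range of *prkar1aa* is narrowed by its own part in the scaling factor. Scaled by the other 5 reference genes, its mean was 1945 in blood and 253 in muscle, against 1585 and 289 with all 6. With each tissue set against the average of the remaining 14, 42 of the 75 member tests passed, 21 higher and 21 lower, where 52.3% of the 3255 tests over all genes did. These comparisons share samples, since each tissue is part of the reference of the others. Some tissues came from hatchery fish only and others from hatchery and wild fish, so tissue and origin are in part the same split. With hatchery fish only, 21 tests passed as higher and 26 as lower.

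**Figure D3:**
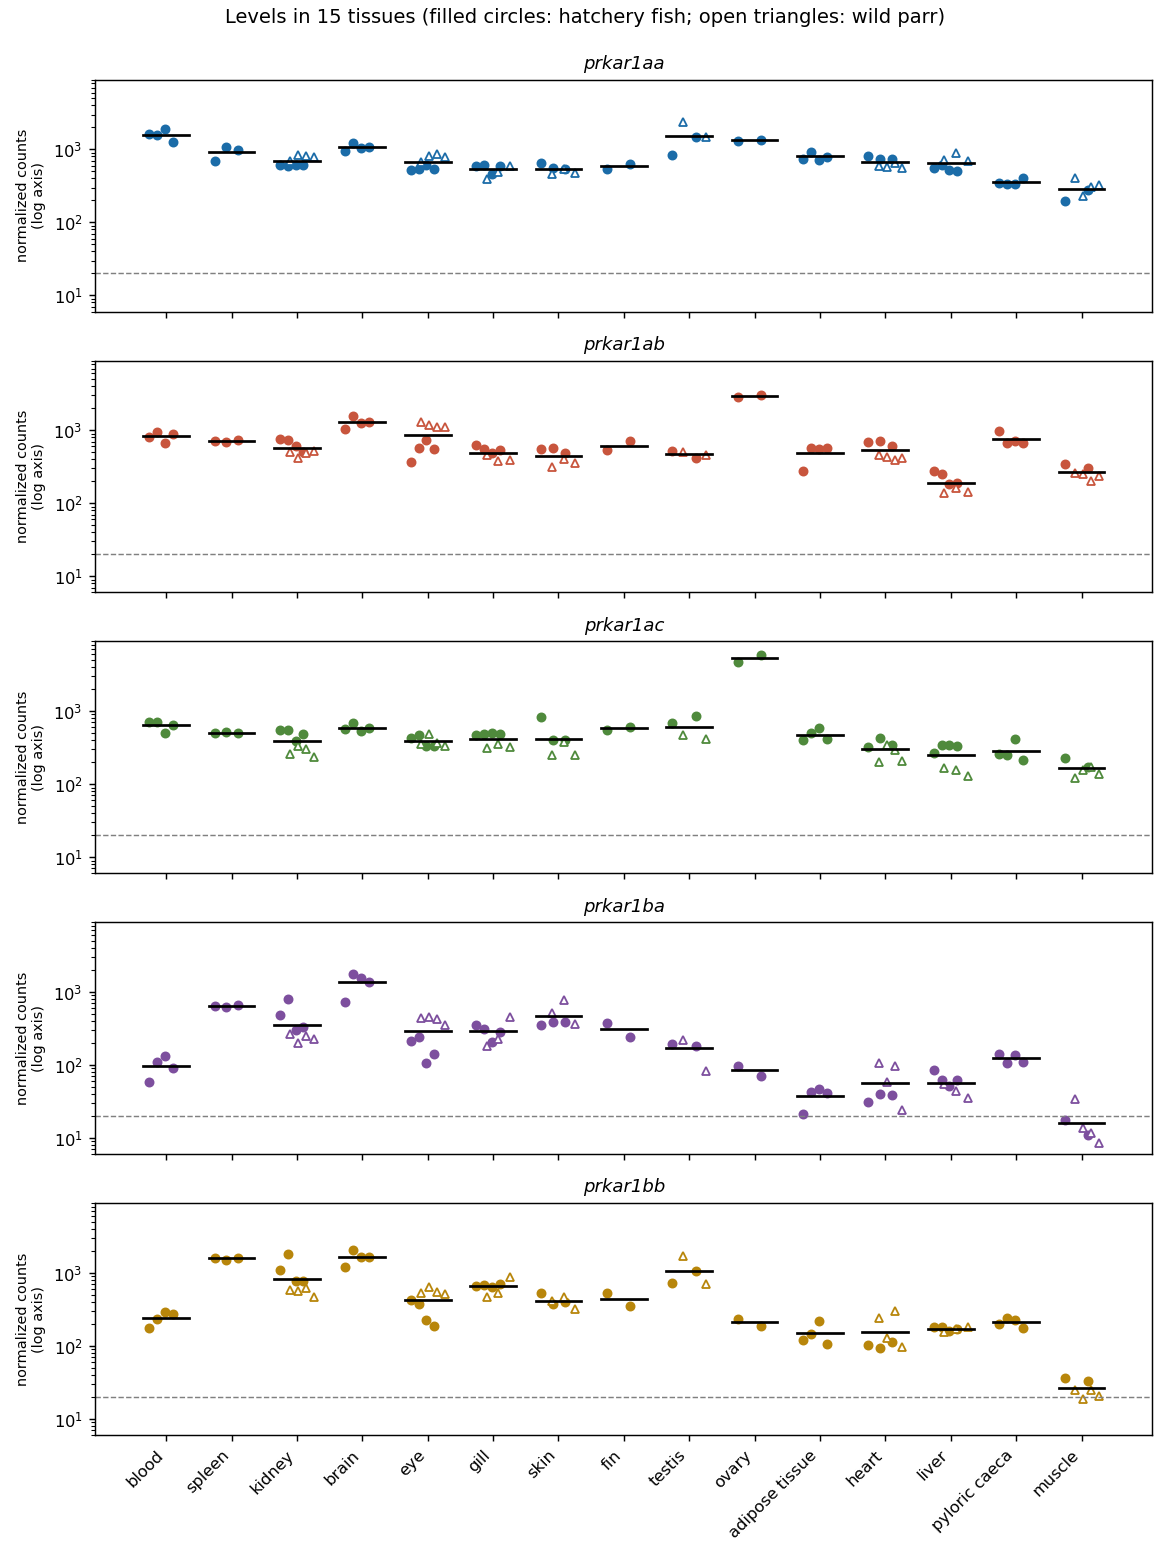
Normalised counts (log axis) of the 5 genes in every tissue sample, with filled circles for hatchery fish, open triangles for wild parr, a line at each tissue mean and a dashed line at 20. *prkar1ab* and *prkar1ac* peak in ovary, *prkar1ba* and *prkar1bb* are highest in brain and lowest in muscle.

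Ovary held the highest levels of *prkar1ac* and *prkar1ab*. *prkar1ac* was at 4656 and 5960 normalised counts in the ovaries of hatchery fish 3 and 4, and the next tissue, blood, had a mean of 642. *prkar1ab* was at 2899 and 3016, and the next tissue, brain, had a mean of 1294. No other tissue sample reached the ovary values of either gene. Against the other tissues *prkar1ac* was 13.1-fold higher (log2 3.71, SE 0.19, adjusted p = 4.0e-28, edgeR) and *prkar1ab* 5.35-fold higher (log2 2.42, SE 0.21, adjusted p = 4.1e-17). *prkar1aa* was at 1316 and 1338, with a log2 difference of 0.93 (SE 0.21, adjusted p = 6.9e-05). In ovary 3 of the 5 passed, against 60.4% of the 217 genes tested, and 7 of the 10 other pathway genes were higher and 0 lower. TMM moved the median of all genes in ovary by -1.04. Under it *prkar1ac* was still higher (2.65), *prkar1aa* was no longer different (-0.14) and *prkar1ba* and *prkar1bb* passed as lower (-2.03 and -1.82).

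Brain held the highest levels of both RIβ paralogs. *prkar1ba* was at 719, 1768, 1579 and 1386 in the brains of hatchery fish 1 to 4, and *prkar1bb* was at 1210, 2069, 1658 and 1664. Fish 1 was lowest for both, and its brain had a total count of 80527 and 10338 normalised counts of the brain marker RTN1 against 13296 to 13594 in the others. The part of that sample's make-up in its levels was not tested. *prkar1ba* was 9.85-fold higher in brain than in the other tissues (log2 3.30, SE 0.21, adjusted p = 1.4e-22) and *prkar1bb* 5.31-fold higher (log2 2.41, SE 0.19, adjusted p = 2.0e-18). Leaving out each brain in turn gave 3.15 to 3.51 and 2.28 to 2.53. *prkar1ab*, at 1045, 1563, 1274 and 1293, was higher by 1.14 (SE 0.18, adjusted p = 8.8e-08) and *prkar1aa* by 0.60 (SE 0.15, adjusted p = 6.6e-04). In all 4 of 5 passed in brain, against 65.9% of genes, and 5 of the 10 other pathway genes were higher and 3 lower.

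The RIβ paralogs were also high outside the nervous system, in spleen above all. *prkar1ba* was at 646, 619 and 669 in the 3 spleens, and *prkar1bb* was at 1616, 1489 and 1626. These lay within the range of the brains for *prkar1bb* and below every brain for *prkar1ba*. The log2 differences were 2.14 (SE 0.27, adjusted p = 6.1e-10) and 2.34 (SE 0.21, adjusted p = 3.3e-14). These were the 2 of 5 that passed in spleen, against 36.9% of genes. The 13 brain and eye markers summed to 244 to 295 in spleen, against 11579 to 15154 in brain. In kidney, which forms blood cells in fish, 2 of 5 passed (53.0% of genes), *prkar1ba* at 1.23 (SE 0.19) and *prkar1bb* at 1.35 (SE 0.16).

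Gill had 3 of 5 calls (55.3% of genes), with *prkar1ba* higher by 0.91 (SE 0.21), *prkar1bb* higher by 0.97 (SE 0.17) and *prkar1aa* lower by 0.47 (SE 0.13). The 13 brain and eye markers summed to 3315 to 5059 in hatchery and 1815 to 2907 in wild gills. Of them 8 and 2 had a mean of 20 or more, and their part was not tested. In skin 3 of 5 passed (44.7% of genes), and *prkar1ba* was higher by 1.64 (SE 0.21, adjusted p = 8.5e-10). *prkar1aa* and *prkar1ab* were lower there, at -0.47 (SE 0.14) and -0.49 (SE 0.17), but the call of *prkar1ab* was lost with fish as a block (-0.39, adjusted p = 0.0511), without wild skin 2 (-0.41) and without wild skin 4 (-0.43). In fin, which came from 1 fish, 1 of 5 passed (30.0% of genes). That gene was *prkar1ba*, at 381 in the adipose fin and 239 in the tail fin, a log2 difference of 1.01 (SE 0.37, adjusted p = 0.0283) that was lost without either sample (0.63 and 1.31) and under TMM (0.39). Eye had 2 of 5 calls (48.8% of genes), *prkar1ab* at 0.52 and *prkar1ba* at 0.93. In hatchery fish alone they were -0.23 (adjusted p = 0.224) and 0.21 (adjusted p = 0.425), in a comparison that also left the wild samples out of the other tissues.

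Testis and blood were the tissues with the highest means of *prkar1aa*. In testis it was at 832 and 1489 in the immature hatchery fish and 2336 and 1474 in the mature wild fish, so immature and mature fish overlapped. *prkar1bb* was at 717 and 1072 in the hatchery fish and 1724 and 700 in the wild fish. Both were higher in testis, at 1.15 (SE 0.15, adjusted p = 3.0e-10) and 1.71 (SE 0.20, adjusted p = 3.9e-11), as 2 of 5 calls against 44.7% of genes. The 13 brain and eye markers summed to 2086 and 1992 in the hatchery testes and to 7170 and 5700 in the wild testes. Most of each sum was 1 gene, RTN1, at 1888 and 1796 in the hatchery and 6627 and 5432 in the wild testes. The part of these markers in the levels was not tested. In the blood of fry *prkar1aa* was at 1606, 1583, 1900 and 1252, a difference of 1.20 (SE 0.14, adjusted p = 7.5e-11). The other calls in blood, for 3 of 5 in all against 63.6% of genes, were *prkar1ab* at 0.46 and *prkar1ba* at -0.78 (both adjusted p = 0.0311). Each was lost without blood sample 1, 2 or 4, at 0.38 to 0.47 and at -0.83 to -0.60. Under TMM, whose shift of the all-gene median in blood was 1.07, *prkar1ba* turned to 0.27 and *prkar1ac* passed as higher (1.56). Blood was also the only tissue from fry, so age and tissue cannot be told apart in it.

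Muscle was the lowest tissue for 4 of the 5 genes, and all 5 were lower there than in the other tissues, where 67.3% of genes passed. *prkar1bb* ran from 18.9 to 35.9 with a mean of 26.3, which was 2.22 times the negative control probes, and *prkar1ba* ran from 8.60 to 34.7 with a mean of 16.3, which was 1.18 times them. *prkar1bb* was lower by 3.98 on the log2 scale (SE 0.29, adjusted p = 4.3e-20), a size limited by background, since wild muscle 1 gave 24.8 against a mean of 30.1 for the negative controls in that sample. For *prkar1ba* the fitted difference of -3.62 was set by counts at the level of the negative controls, so it marks a gene at background and not a measured ratio. The RIα paralogs stayed well above background, at means of 289, 266 and 165, and were lower by 1.43, 1.30 and 1.65.

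Adipose tissue, heart and liver were the next lowest for the RIβ paralogs. In adipose tissue *prkar1ba* was at 21.4, 43.4, 47.1 and 40.9, close to background in fish 1, and it was lower by 2.21 (SE 0.36), with *prkar1bb* lower by 1.32 (SE 0.28), as 2 of 5 calls against 51.2% of genes. In heart 3 of 5 passed (65.0% of genes), *prkar1ba* at -1.63, *prkar1bb* at -1.25 and *prkar1ac* at -0.69. The call of *prkar1ac* was lost under TMM (-0.17). In liver 4 of 5 passed (64.1% of genes), *prkar1ab* at -1.80 (SE 0.18, adjusted p = 1.0e-13), *prkar1ba* at -1.62, *prkar1bb* at -1.10 and *prkar1ac* at -1.01. *prkar1ba* was on average 3.03 times the negative control probes in liver, so the size of its difference there is limited by background. *prkar1ab* was at 138 to 274 in the 7 livers, where it overlapped no tissue but muscle. In pyloric caeca, the blind sacs of the fish gut, 3 of 5 passed (33.2% of genes). *prkar1aa* was at 352, 333, 332 and 403 there and lower by 1.11 (SE 0.18, adjusted p = 6.9e-07), with *prkar1ac* at -0.80 and *prkar1bb* at -0.77. The call of *prkar1bb* was lost without pyloric caeca 1 (-0.75, adjusted p = 0.0578) or 4 (-0.69, adjusted p = 0.0827).

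**Figure D4:**
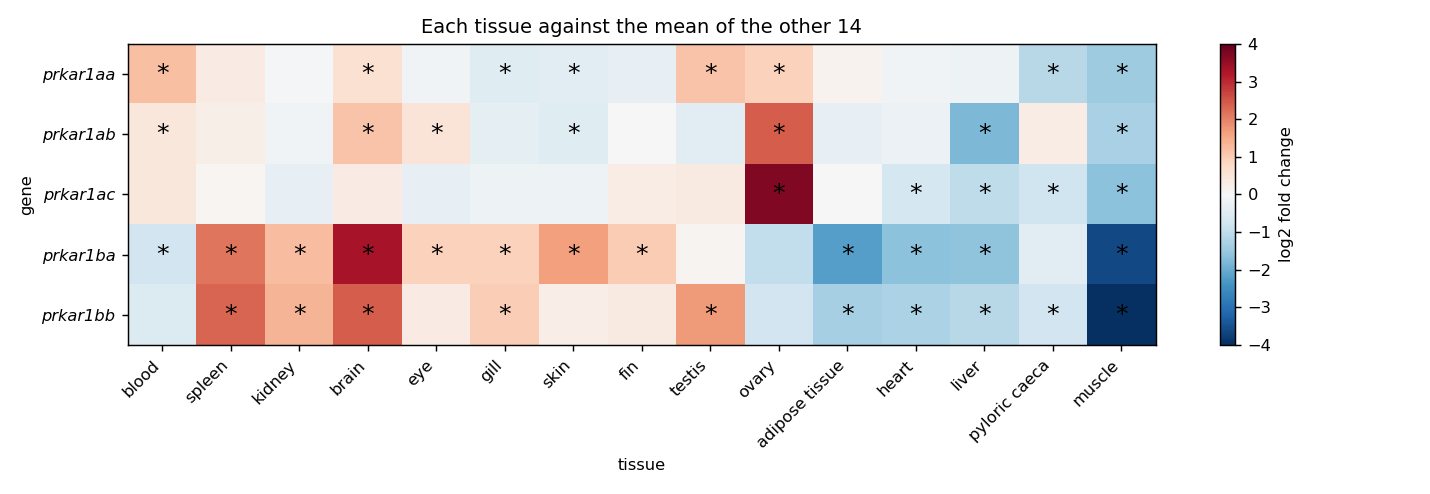
Log2 fold change of each gene (rows) in each of 15 tissues (columns) against the average of the remaining 14, red for higher and blue for lower. The values of *prkar1ba* and *prkar1bb* have the same sign in brain (3.30 and 2.41), spleen (2.14 and 2.34) and muscle (-3.62 and -3.98), and that of *prkar1ac* is highest in ovary (3.71).

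Ordered by mean, most neighbouring tissues differed by less than the sum of their SDs, and for each gene 2 of the 14 gaps were larger. For *prkar1aa* the order was blood, testis, ovary, brain, spleen, adipose tissue, kidney, eye, heart, liver, fin, skin, gill, pyloric caeca and muscle, with the larger gaps after ovary and after gill. For *prkar1ab* it was ovary, brain, eye, blood, pyloric caeca, spleen, fin, kidney, heart, adipose tissue, gill, testis, skin, muscle and liver, with gaps after ovary and after skin. For *prkar1ac* it was ovary, blood, testis, brain, fin, spleen, adipose tissue, gill, skin, eye, kidney, heart, pyloric caeca, liver and muscle, with gaps after ovary and after fin. The SD of fin is between samples of 1 fish, so the gap after fin is not set against a spread between fish. For *prkar1ba* it was brain, spleen, skin, kidney, fin, eye, gill, testis, pyloric caeca, blood, ovary, liver, heart, adipose tissue and muscle, with gaps after brain and after adipose tissue. For *prkar1bb* it was brain, spleen, testis, kidney, gill, fin, eye, skin, blood, pyloric caeca, ovary, liver, heart, adipose tissue and muscle, with gaps after skin and after adipose tissue.

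Over the 19 points of 4 stages and 15 tissues, the pattern of *prkar1ba* was most like that of *prkar1bb* (Pearson r = 0.91 on log2 means), and this r was 0.91 without ovary, 0.89 without brain and 0.88 without muscle. The next genes were CADM2Ba (0.62) and TNFSF11 (0.57) for *prkar1ba*, and PRKAR2Bc (0.57) and AESb (0.53) for *prkar1bb*. For *prkar1ac* they were KDM5Bb (0.93), LAPTM4Aa (0.90) and AKAP11a (0.89), for *prkar1ab* HIF1A (0.87), AKAP11a (0.84) and *prkar1ac* (0.83), and for *prkar1aa* LAPTM4Aa (0.73), AKAP11a (0.68) and *prkar1ac* (0.67). Each of those genes was highest in ovary. Without ovary the r of *prkar1ab* and *prkar1ac* was 0.66 over 18 points, and that of *prkar1ac* and *prkar1bb* went from 0.28 to 0.75. The points share their scaling factors, so these values describe the panel and were not tested. Within samples the log2 ratio of *prkar1bb* to *prkar1ba* was highest in testis (2.60 ± 0.53, n = 4) and lowest in skin (-0.12 ± 0.45, n = 6), and that of *prkar1ac* to *prkar1ab* was highest in ovary (0.83) and lowest in pyloric caeca (-1.42).

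Wild and hatchery parr were compared in 7 tissues. Habitat, river population and cartridge were the same split and so, in part, were sex and maturity, so these cannot be told apart. In all 12 of 34 member tests passed, 4 higher and 8 lower in wild parr, where 40.9% of the 1122 tests over all genes passed, and *prkar1ba* in muscle was below the level needed for a test. The values of the groups did not overlap for 4 of the 5 genes in eye (52.0% of genes), 4 in kidney (53.7%), 3 in liver (32.9%), 3 in skin (64.1%), 2 in gill (36.3%), 2 in heart (43.1%) and 2 in muscle (47.1%). The balance of the calls depended on the scaling, with 6 higher and 2 lower under TMM, whose shift of the all-gene median was 0.57 to 0.63 in gill, kidney, muscle and skin.

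The 4 higher calls were all in eye, where 56.1% of the 171 genes passed and 24.6% were higher. *prkar1ab* was at 363, 574, 725 and 552 in hatchery eyes and 1309, 1186, 1103 and 1118 in wild eyes, 2.13-fold higher (log2 1.09, SE 0.20, adjusted p = 0.00107). *prkar1ba* was at 213, 243, 105 and 143 against 434, 449, 421 and 350, 2.35-fold higher (log2 1.23, SE 0.25, adjusted p = 0.0019). *prkar1bb* was at 423, 371, 223 and 190 against 523, 636, 548 and 509 (log2 0.88, SE 0.25, adjusted p = 0.0117). Wild and hatchery eyes did not overlap for these genes or for *prkar1aa* (log2 0.51, SE 0.14, adjusted p = 0.0106), while *prkar1ac* was at 389 and 387 on average. The marker genes moved between the same samples. The 13 brain and eye genes summed to 1876 to 2941 in hatchery and 4127 to 4712 in wild eyes, with 7 and all 13 of them at a mean of 20 or more, and RTN1 ran from 1311 to 2574 and from 2675 to 3156. The 5 skin and fin genes summed to 23700 to 32888 in hatchery and 6188 to 8607 in wild eyes. The 8 adipose tissue genes summed to 1340 to 2285 and 530 to 651, and the 2 gonad genes to 97.3 to 155 and 40.4 to 78.7. The immune, liver and muscle genes overlapped. The part of these lists in the result was not tested. Among immature males only, with 2 fish a side, *prkar1ab* (1.41, adjusted p = 0.0119) and *prkar1ba* (0.95, adjusted p = 0.0244) still passed, and *prkar1aa* and *prkar1bb* did not. Of the 10 other pathway genes 5 were higher in wild eyes and 0 lower.

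In kidney 3 of 5 passed, all lower in wild parr, against 66.0% of genes in either direction and 46.9% lower. *prkar1ac* was at 544, 545, 387 and 484 in hatchery and 259, 333, 305 and 236 in wild kidneys (log2 -0.79, SE 0.19, adjusted p = 0.0060). *prkar1ba* was at 487, 794, 302 and 334 against 266, 201, 250 and 231 (-1.02, SE 0.30, adjusted p = 0.0148). *prkar1bb* was at 1081, 1810, 769 and 783 against 586, 567, 616 and 470 (-0.99, SE 0.29, adjusted p = 0.0142). None of the 3 overlapped, and hatchery fish 2 was far above the rest for both RIβ paralogs. Without hatchery kidney 2 they were -0.66 and -0.65, and both still passed. Among immature males only, with 2 fish a side, none of the 3 genes passed. Hatchery males 1 and 2 were above females 3 and 4 for both RIβ paralogs, and all wild fish were male. Under TMM the 3 differences were -0.15, -0.40 and -0.37 and did not pass. The 2 gonad marker genes summed to 49.5 to 90.2 in hatchery and 12.5 to 29.5 in wild kidneys, and the 8 adipose tissue genes to 3788 to 5819 and 905 to 1370. The 5 skin and fin genes summed to 1292 to 1878 and 403 to 1046, and the remaining lists overlapped. The part of other tissue in these samples was not tested. *prkar1aa* was at 584 to 616 against 692 to 837, without overlap, with a log2 difference of 0.37 that did not pass (adjusted p = 0.0683). It passed with the 5 other reference genes (0.44, adjusted p = 0.0377) and without wild kidney 1 (0.42, adjusted p = 0.0235). *prkar1ab* (-0.43, adjusted p = 0.0675) passed without hatchery kidney 4 (-0.53, adjusted p = 0.0405).

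**Figure D5:**
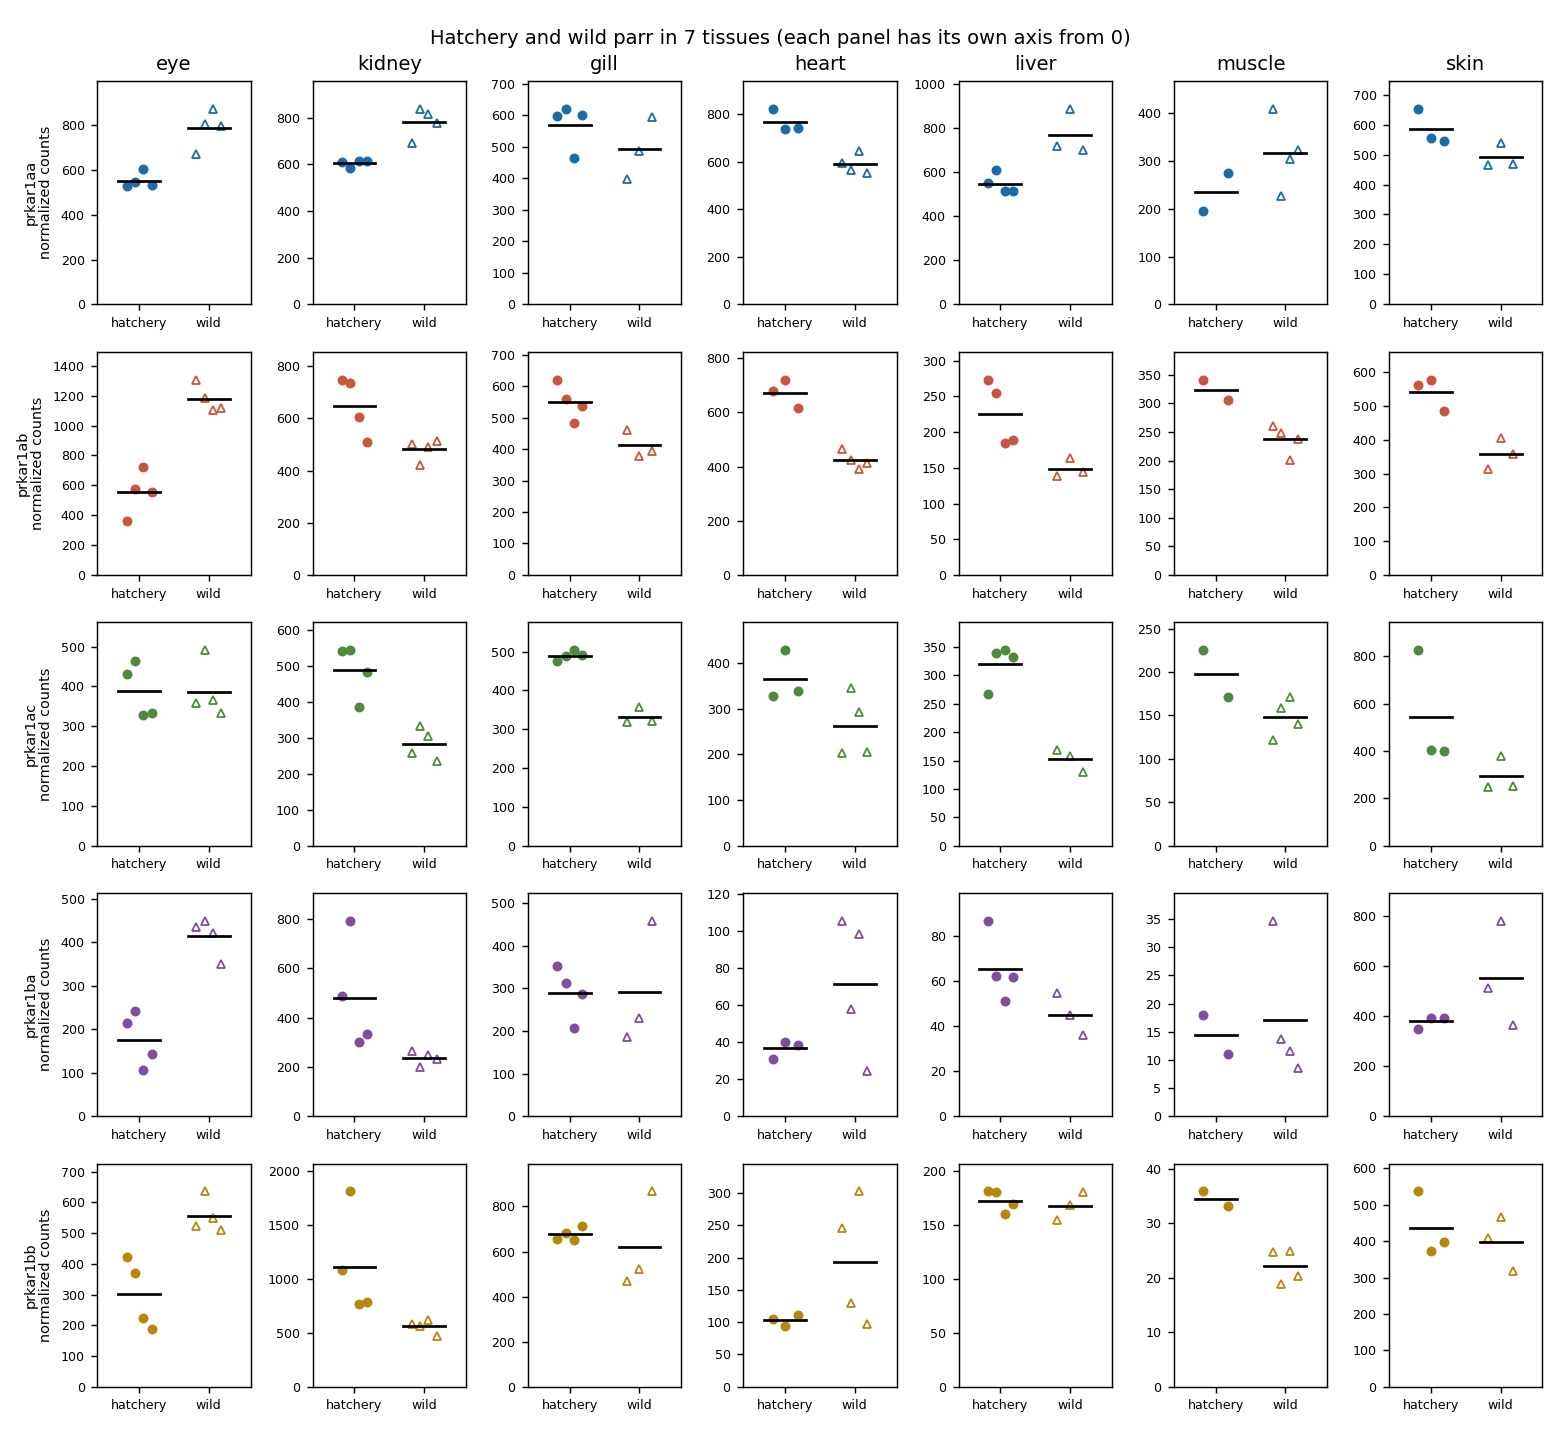
Normalised counts of the 5 genes (rows) in hatchery (filled circles) and wild parr (open triangles) in 7 tissues (columns), with a line at each group mean and each panel on its own axis from 0. In eye the 4 wild fish lie above the 4 hatchery fish for 4 of the 5 genes, and in kidney they lie below for *prkar1ac*, *prkar1ba* and *prkar1bb*.

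In liver 1 of 5 passed (23.4% of genes). That gene was *prkar1ac*, at 268, 339, 345 and 333 in hatchery and 169, 158 and 130 in wild livers, without overlap and 2.11-fold lower (log2 -1.08, SE 0.24, adjusted p = 0.0068). TMM gave -0.90, which passed. The 3 liver genes summed to 439569 to 501709 in hatchery and 695183 to 1266156 in wild livers, and their part was not tested. In heart 1 of 5 passed (34.3% of genes), *prkar1ab* at 680, 722 and 616 against 464, 425, 390 and 414 (-0.67, SE 0.16, adjusted p = 0.0172). It was lost without hatchery heart 1 (-0.66) or 2 (-0.62), and among immature males only, with 2 fish a side. Wild hearts were spread widely for the RIβ paralogs, from 24.3 to 106 for *prkar1ba* and from 97.8 to 302 for *prkar1bb*, and without wild heart 4 both passed as higher (1.24 and 1.13). The brain and eye genes summed to 3447 to 6393 in hatchery and 1346 to 2459 in wild hearts. Of these 13 genes, 2 and 3 had a mean of 20 or more. The 3 liver genes summed to 333 to 546 and 3089 to 87532, and the 8 adipose tissue genes to 417 to 571 and 679 to 1977. The gonad, immune, muscle, and skin and fin genes overlapped. The part of these lists was not tested.

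In gill 1 of 5 passed (24.9% of genes), *prkar1ac* at 476, 487, 503 and 490 against 318, 357 and 321 (-0.56, SE 0.15, adjusted p = 0.0370). The groups did not overlap. The call was lost without hatchery gill 1 or 4 or any of wild gill 1, 2 and 3 (-0.61 to -0.53), and under TMM the difference was 0.01. It was lost too among immature males only, with 2 fish a side. The 13 brain and eye genes summed to 3315 to 5059 in hatchery and 1815 to 2907 in wild gills, with 8 and 2 at a mean of 20 or more. The 2 gonad genes summed to 130 to 239 and 39.1 to 80.8, and the 8 adipose tissue genes to 2175 to 2428 and 1547 to 1792. The part of these lists was not tested. In skin 2 of 5 passed (54.2% of genes), *prkar1ab* at -0.60 (SE 0.17, adjusted p = 0.0182) and *prkar1ac* at -0.89 (SE 0.33, adjusted p = 0.0480). *prkar1ac* was at 826, 405 and 401 in hatchery and 249, 378 and 252 in wild skin, and without hatchery skin 1 its difference was -0.46 (adjusted p = 0.125). It also missed the threshold without wild skin 2, 3 or 4 (-1.12 to -0.79). *prkar1ab* missed it without hatchery skin 3 (-0.55) or wild skin 2 (-0.51), and was 0.03 under TMM. *prkar1ba* (0.54) passed only without wild skin 4 (0.77, adjusted p = 0.0263) among the samples left out in turn. The 5 skin and fin genes summed to 54242 to 125603 in hatchery and 13341 to 27025 in wild skin, and the adipose tissue genes to 2551 to 2948 and 1511 to 1899. The brain and eye genes summed to 525 to 964 and 168 to 224, and the 2 gonad genes to 53.8 to 119 and 36.3 to 53.4. The immune, liver and muscle genes overlapped. The part of these lists in the calls was not tested. In muscle, with 2 hatchery samples, 0 of 4 passed edgeR's test and 0 had an unadjusted p below 0.05, against 31.6% of genes that passed.

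Whether the difference between wild and hatchery parr varied between tissues was tested by taking each tissue's difference less the average of those in the other 6, in 1 fit, a comparison added after the values above had been seen. In all 8 of 35 tests passed, against 17.6% of the 1505 tests over all genes. The 7 tissues came from the same 8 fish, and the fit took the samples as independent. With fish as a block, also added then, the same 8 passed in the same direction, and so did *prkar1aa* in eye (0.44, adjusted p = 0.0293, against 0.44 and adjusted p = 0.0528 without the block). Eye stood apart for 4 of 5 genes (34.9% of genes), with *prkar1ab* at 1.62 (SE 0.19, adjusted p = 2.5e-08), *prkar1ba* at 1.23, *prkar1bb* at 1.05 and *prkar1ac* at 0.69. Between wild and hatchery eyes themselves *prkar1ac* did not differ (log2 -0.0086, adjusted p = 0.96, edgeR). Its value of 0.69 reflects estimates below 0 in each of the other 6 tissues. Kidney stood apart in the direction opposite to eye for *prkar1ba* (-1.39, adjusted p = 0.0038) and *prkar1bb* (-1.13, adjusted p = 0.0030), 2 of 5 against 29.8% of genes. Heart stood apart as higher for *prkar1bb* (1.08) and as lower for *prkar1aa* (-0.60), 2 of 5 against 27.9%. Between wild and hatchery hearts themselves neither gene passed (0.91, adjusted p = 0.106, and -0.38, adjusted p = 0.104, edgeR). The other tissues had 0 of 5 calls, against 18.6% of genes in gill, 5.58% in liver, 6.05% in muscle and 0.465% in skin. In this fit *prkar1ba* was tested in muscle too, where it was at background, so that test carries no information. Its muscle difference is also part of the average behind its values in eye and kidney. *prkar1bb* in muscle was on average 2.22 times the negative control probes, and that muscle difference is part of its values in eye, kidney and heart. These fits used the 6-gene factor only. Whether their calls hold under TMM, which moved some tissues more than others, was not tested.

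Ovary and immature testis, both of hatchery fish, were compared with 2 samples each in 1 fit with the mature testes. No cartridge was shared between the gonad groups, so group and cartridge cannot be told apart. In all 3 of 5 passed, against 73.7% of the 190 genes. *prkar1ac* (4656 and 5960 against 680 and 871) was 6.84-fold higher in ovary (log2 2.77, SE 0.27, adjusted p = 0.000139). *prkar1ab* (2899 and 3016 against 513 and 415) was 6.37-fold higher (log2 2.67, SE 0.25, adjusted p = 0.000114). *prkar1bb* (237 and 185 against 717 and 1072) was 4.25-fold lower (log2 -2.09, SE 0.48, adjusted p = 0.0059), and without ovary 4 it missed the threshold (-1.92, adjusted p = 0.0701). The groups did not overlap for these 3 genes, while for *prkar1aa* the ovaries, at 1316 and 1338, lay between the 2 testes. *prkar1ba* (-1.15, adjusted p = 0.0747) passed without wild testis 3 or 4 (both -1.15, adjusted p = 0.0157 and 0.0156) and under TMM (-1.93). Between mature wild and immature hatchery testis, where maturity, habitat, river and cartridge cannot be told apart, 0 of 5 passed in edgeR against 11.1% of genes. *prkar1ac*, at 468 and 420 against 680 and 871, had the lowest p of the 5 (-0.80, unadjusted p = 0.0182, adjusted p = 0.105), and DESeq2 called it (-0.95, adjusted p = 0.0453).

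No member passed in the remaining comparisons. Low-fat diet against normal diet gave 0 of 5 in fry of 1320 °d (edgeR, 0.581% of genes) and 0 of 5 in fry blood (0% of genes), with 2 fish a side and log2 differences from -0.27 to 0.38 and from -0.30 to 0.46. Mature against immature wild males over their somatic tissues gave 0 of 5 (limma with fish as a random block, 0% of genes), with differences from -0.28 to 0.12. Female against male hatchery parr gave 0 of 5 (limma, 5.65% of genes), with differences from -0.22 to 0.01. In each of these 4 comparisons 0 of the 5 genes had an unadjusted p below 0.05. Samples of 2 fish a side leave such differences poorly measured.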

How the data were processed

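RNA of 96 samples was read singly with an nCounter probe set of 220 genes and 8 negative control probes. The deposited raw counts were used for every test. The deposited normalised signal of 211 genes, made by the authors as the raw count times a factor from the geometric mean of 6 reference genes, was rebuilt from the raw counts to within 0.037% for these 5 genes, and it gave the levels. The sources used here name no genome build. The 5 genes and all lists were chosen with earlier results of these data known.

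Tests on counts were edgeR's quasi-likelihood F tests, with the 6-gene factor as offset and Benjamini-Hochberg adjustment over all genes tested in a comparison at 0.05, on genes with a mean of at least 20 normalised counts in 1 group. The stages, all tissues, the gonads and each tissue of the wild and hatchery parr had fits of their own. Maturity and sex over somatic tissues were tested with limma on log2(normalised count + 1), with fish as a random block (correlation 0.23 over 25 samples and 0.01 over 41). Within a stage or tissue separate fish were the replicates except in fin, where both samples came from 1 fish. The SE and SD of fin therefore hold no spread between fish. The fit of all tissues took several tissues of the same 8 parr as independent, with fish as a block only in an alternative. The maturity and sex fits took 25 and 41 samples from 4 fish each. At a correlation of 0.01 the 41 samples counted nearly as independent, though sex differed between 2 fish and 2. Tissues of 1 fish are paired by the labels, with a mean correlation of 0.10 between their deviations over 317 pairs. The closest replicates differed by 4.60 times the counting noise. All 5 genes are described, and of other genes the largest changes of the pathway, the reference genes and the 3 most alike genes. Alternatives were scaling by 5 genes, TMM, DESeq2, limma, negative controls subtracted, no filter, blocks and leaving out samples. The tests were checked on simulated counts. Versions were edgeR 4.0.16, limma 3.58.1 and DESeq2 1.42.0 in R 4.3.3, and Python 3.11.15 with scipy 1.17.1.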

Additional observations from a re-analysis of the deposited data

Results flagged for a closer look

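In 6 of the 80 sets of 1 gene in 1 group of 4 to 10 samples, 1 sample lay far from the others by Dixon's criterion, which chance meets in about 1 of 20 sets. *prkar1bb* was at 247 in 258 °d embryo 2 and at 193 to 200 in the others. *prkar1aa* was at 376 in alevin 4 and at 450 to 465 in the others, and at 466 in hatchery gill 3 and 596 to 620 in the others. *prkar1ba* was at 349 in fry 4 and at 205 to 254 in the others. *prkar1ab* was at 275 in hatchery adipose tissue 1 and at 561 to 576 in the others. *prkar1ac* was at 268 in hatchery liver 1 and at 333 to 345 in the others.

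The difference between wild and hatchery parr in 1 tissue, less the mean difference in the other 6 tissues, passed edgeR's test in 8 of 35 cases, where 34.9% of all genes passed in eye, 29.8% in kidney and 27.9% in heart. All 8 also passed with fish as a block, and scalings other than the 6-gene factor were not tested for them. For *prkar1ba* the mean of the other tissues takes in muscle, where it was at background. For *prkar1bb* it takes in muscle too, at a level on average 2.22 times the negative control probes. In eye these log2 values were 1.62 for *prkar1ab* (adjusted p = 2.5e-08), 1.23 for *prkar1ba* (adjusted p = 0.0076), 1.05 for *prkar1bb* (adjusted p = 0.0040) and 0.69 for *prkar1ac* (adjusted p = 0.0145). Wild and hatchery eyes themselves did not differ for *prkar1ac* (log2 -0.0086, adjusted p = 0.96, edgeR). In kidney the values less the other tissues were -1.39 for *prkar1ba* (adjusted p = 0.0038) and -1.13 for *prkar1bb* (adjusted p = 0.0030). In heart they were 1.08 for *prkar1bb* (adjusted p = 0.0106) and -0.60 for *prkar1aa* (adjusted p = 0.0151). Between wild and hatchery hearts themselves neither gene passed (0.91, adjusted p = 0.106, and -0.38, adjusted p = 0.104, edgeR). Habitat, river population and cartridge cannot be told apart in any of these.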

How the results depend on the processing

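With no sample left out, the 159 member results had 1377 alternative values, of which 1266 kept the call. Scaling by the 5 reference genes other than *prkar1aa* left 151 of the 159 results unchanged in call, added 6 calls and took away 2. The sign of the estimate turned, with only 1 of both values past the threshold, under TMM for *prkar1ab* at the step from alevin into fry, 0.24, *prkar1ba* in blood (0.27), *prkar1aa* in ovary (-0.14), and, between wild and hatchery parr, *prkar1ac* in gill (0.0054) and *prkar1ab* in skin (0.0297). Under DESeq2 it did so for *prkar1ba* in blood (0.23), *prkar1aa* in heart (0.39) and *prkar1ac* between wild and hatchery gill (0.0589), and in hatchery fish alone for *prkar1ab* in eye (-0.23). In 81 further cases the sign differed and neither value passed. Between wild and hatchery parr 2 calls were left among immature males, where fewer fish were tested and skin could not be fitted, and DESeq2 called 1 gene between mature and immature testis. The cause of the other changes was not tested.

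Leaving out each sample in turn gave 10 to 12 calls for the stages, 40 to 47 for the tissues and 10 to 14 for wild against hatchery parr. It gave 2 to 4 for ovary against testis, and 0 to 0 for mature testis and for both diet comparisons. The paralog ratios had 0 to 0 as well. For them the few samples limit how small an exact permutation p can be, so this range does not measure how steady they were. With the replicate block (replicate number) the stages had 11 calls, as without it, and same-numbered fish of different stages had a mean correlation of 0.00. There *prkar1ac* passed between the embryo ages (0.34) and missed the threshold between 186 °d embryos and fry, at 0.20. With fish as a replicate block the parr tissues had 40 calls, against 41 without it. The block took away the calls of *prkar1ab* in skin (-0.39) and *prkar1ba* in ovary (-0.87, against -1.06 without it) and added *prkar1ac* in testis (0.49).

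Over all genes, calls fell from 141 to 66 in heart, from 115 to 57 in kidney and from 80 to 49 in spleen with negative controls subtracted. Between wild and hatchery parr they went from 50 to 10 (TMM), 23 (DESeq2) and 17 (limma) in gill, from 83 to 44 (TMM) and 55 (DESeq2) in skin, and from 49 to 14 (5 reference genes) and 8 (TMM) in muscle. Among immature males they were 8 in kidney (97 in all fish), 1 in liver (37) and 1 in muscle (49). They went from 21 to 34 in mature testis (DESeq2), from 1 to 3 for diet in whole fry with 5 reference genes and from 10 to 17 for sex without fish as a block. Ratios near the negative controls, as those of *prkar1ba* and *prkar1bb* in muscle, are limited by background.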
